A study of Mus musculus with 22 samples.

Results

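Metastasis-like primary tumours of the mouse pancreas were set against angiogenic islets, the premalignant stage in which blood vessels grow into the islets. The samples were chosen by their tissue label alone, which gave 5 arrays labelled Met-like primary and 3 labelled Angiogenic Islet, 8 of the 22 arrays of the series. The remaining arrays were 5 islet tumours, 3 normal islets, 3 hyperplastic islets and 3 liver metastases, and the islet tumours are used below as a second tumour class. Every group, the islets included, carried the RIP1-Tag2 (RT2) genotype, a transgene that expresses a viral T antigen from the insulin promoter in beta cells, so that no wild-type islets were compared. Ages, sexes and the basis of the metastasis-like label are not given in these sources, and a label chosen on expression cannot be told apart from the differences below. Whether samples are separate animals is not stated in the labels. Each p-value measures only the spread between samples within groups, taken over all 22 arrays and not only these 8. That spread may be technical. Arrays are named by their titles, which are I-9812, II-648, II-6413, III-8016 and III-8023 (each followed by MLP in the labels) for the metastasis-like primaries and AngiogenicI-93, Angiogenic2006 and Angiogenic2007 for the angiogenic islets. Values of single arrays are given in that order.

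RT2 mice are a textbook model of the angiogenic switch. Islets first overgrow, then some acquire new capillaries, and a smaller number progress to neuroendocrine tumours. Vascular endothelial growth factor A (VEGF-A) released by islet cells acts on the receptor tyrosine kinase VEGFR2 of endothelial cells, which form the capillary wall and are covered by pericytes and a basement membrane. Mature beta cells are known for glucose uptake through a low-affinity transporter, for insulin granules and for a small set of transcription factors that keep these genes on.

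All levels are log2 intensities, and differences are metastasis-like primaries minus angiogenic islets on the log2 scale with their SE, tested with limma over 19938 genes and called at a Benjamini-Hochberg adjusted p below 0.05. Between the groups 6652 genes were called, 33.4% of those tested, of which 3043 were higher (15.3% of all genes) and 3609 lower (18.1%). A change of at least 1 log2 was called for 507 genes higher (2.54%) and 690 lower (3.46%). For 6903 genes (34.6%) the 5 arrays and the 3 arrays did not overlap, and 5612 genes (28.1%) were both called and free of overlap. The median difference over all genes was 0.04. A list is read against these shares, since one with 33.4% of its members called would match the background. Precision is limited by how few arrays there are. The median SD of a gene was 0.13 among the metastasis-like primaries and 0.10 among the angiogenic islets, and array medians over these genes lay between 7.46 and 7.53 on the 8 arrays. Lists of markers gave each array's content of other cells. Array III-8016 stood apart from the other metastasis-like primaries in its acinar genes, and the arrays AngiogenicI-93 and Angiogenic2006 of the angiogenic islets carried lymphocyte genes, as described with those lists.

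**Figure D1:**
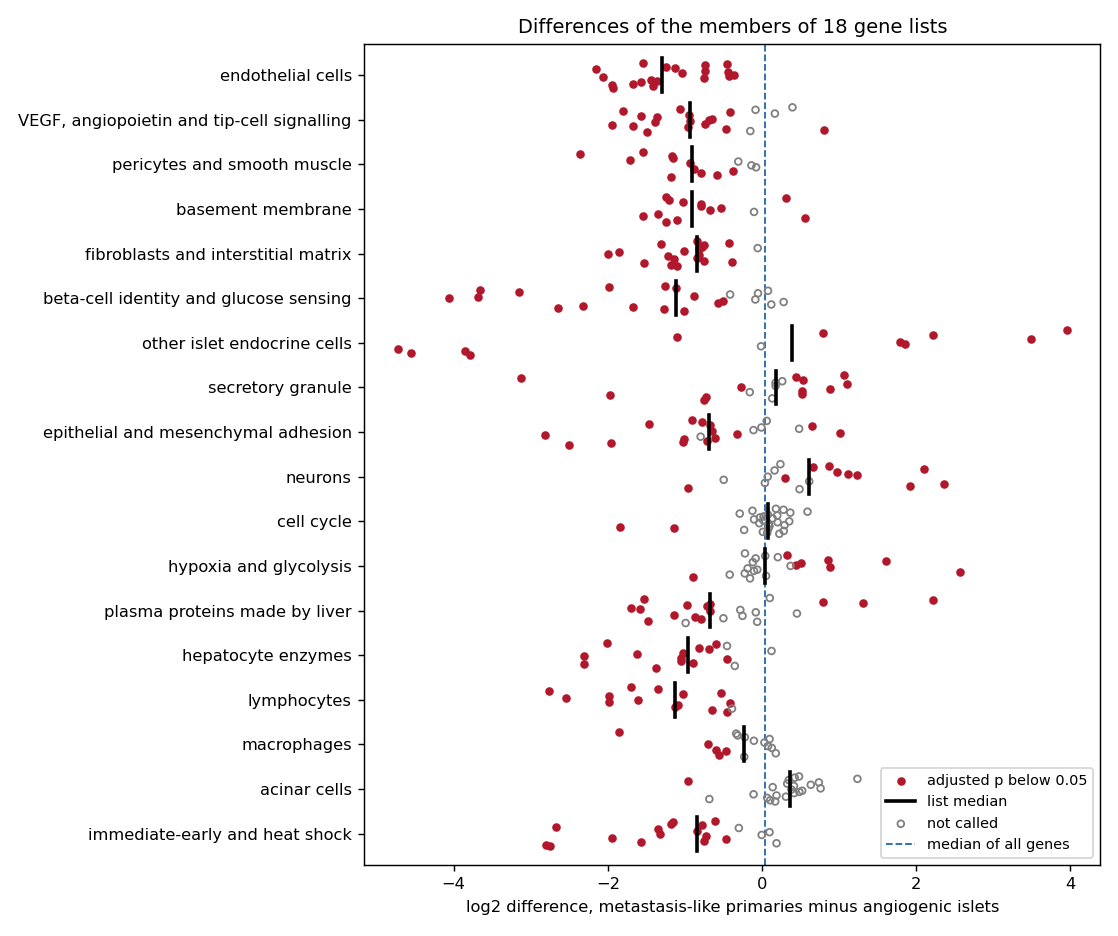
Each point is 1 gene of 18 gene lists, placed at its log2 difference of metastasis-like primaries (n = 5) minus angiogenic islets (n = 3). Filled points had an adjusted p below 0.05, open points did not, black bars are list medians and the dashed line is the median of all genes. All 20 endothelial genes lie left of the dashed line, cell cycle genes lie around it, and the list of other islet endocrine cells is split between both ends.

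Endothelial genes were lower in metastasis-like primaries throughout the list. All 20 measured endothelial genes were called lower, against 18.1% of all genes, with a median difference of -1.30 against 0.04 over all genes. In 19 of them the groups did not overlap, against 17.9% of all genes that were lower without overlap. Pecam1, the adhesion molecule CD31 of endothelial junctions, read 7.70, 7.82, 8.32, 7.87 and 7.78 in metastasis-like primaries and 10.20, 9.81 and 9.49 in angiogenic islets. Every primary lay more than 1 log2 under every islet sample, and II-6413 was the highest of the primaries. Pecam1 averaged 7.90 ± 0.25 in metastasis-like primaries (SD, n = 5) and 9.83 ± 0.35 in angiogenic islets (SD, n = 3), and was 3.83-fold lower (limma adjusted p = 8.51e-09). Plvap, the diaphragm protein of fenestrated capillaries, fell furthest of the list, by 2.15 ± 0.17, with 8.40 ± 0.22 in metastasis-like primaries and 10.55 ± 0.28 in angiogenic islets. The sialomucin endomucin (Emcn) was 4.16-fold lower and the vascular cadherin Cdh5 2.67-fold lower. The smallest falls were in Cldn5, a tight junction claudin (-0.37 ± 0.09, adjusted p = 0.00412), Esam, a junction adhesion molecule (-0.43 ± 0.13, adjusted p = 0.0112), and the transcription factor Sox17 (-0.44 ± 0.12, adjusted p = 0.0051). Without the array AngiogenicI-93 the calls of Esam and Sox17 were lost (adjusted p = 0.12 and adjusted p = 0.058), and without the array Angiogenic2006 that of Cldn5 (adjusted p rounding to 0.05 but not below it). In whole-tissue RNA, fewer cells of a type and less RNA per cell cannot be told apart.

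The promoters of 3 of these genes are shown because their falls were measured on the same arrays and because the same short motif occurs in each. Endothelial genes are known to be driven by factors of the ETS family, which bind a GGAA core. Of the 20 endothelial genes, 10 had a promoter in the RefSeq table (GRCm38.p6), and in 7 of them (70.0%) the 250 bases before the annotated start held AGGAAG or its reverse complement CTTCCT, against 4954 of 15614 measured genes (31.7%). The neutrophil list, of which no gene was called, had the motif in 8 of 11 promoters (72.7%). In all, 14 motifs were searched on both strands and this one was chosen after the counts were seen. It can overlap the searched CAGGAA, which occurred in 6 of the 10 promoters (60.0%) and in 26.6% of all, while CCGGAAG occurred in 0 of 10 and in 10.7% of all. A match is a description of these letters and not a binding site. The sequences below run along each gene's own strand up to the base before the start, with matches in capitals.
Flt1 (chr5:147726012-147726261, minus strand, matches 129 and 53 bases before the start): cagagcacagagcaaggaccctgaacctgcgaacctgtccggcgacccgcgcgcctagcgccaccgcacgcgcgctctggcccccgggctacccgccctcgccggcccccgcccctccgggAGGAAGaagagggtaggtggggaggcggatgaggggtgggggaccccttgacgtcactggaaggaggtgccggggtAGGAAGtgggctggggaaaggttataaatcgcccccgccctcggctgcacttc
Tie1 (chr4:118489850-118490099, minus strand, match 219 bases before the start): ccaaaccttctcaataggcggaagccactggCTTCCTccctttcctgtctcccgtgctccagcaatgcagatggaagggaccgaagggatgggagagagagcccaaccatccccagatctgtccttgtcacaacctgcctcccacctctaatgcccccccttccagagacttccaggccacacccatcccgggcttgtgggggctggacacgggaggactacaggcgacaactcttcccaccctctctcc
Robo4 (chr9:37401722-37401971, plus strand, match 49 bases before the start): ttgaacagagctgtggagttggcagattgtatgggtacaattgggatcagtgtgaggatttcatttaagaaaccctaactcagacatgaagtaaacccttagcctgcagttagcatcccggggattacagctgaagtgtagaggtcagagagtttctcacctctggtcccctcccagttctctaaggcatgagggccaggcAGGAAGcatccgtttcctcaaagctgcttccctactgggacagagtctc

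Flt1 encodes VEGFR1, which binds VEGF-A tightly and limits what reaches VEGFR2. Its 5 metastasis-like primaries read 7.54, 8.09, 8.05, 7.80 and 7.75, against 9.77, 9.29 and 9.51 in angiogenic islets, and it was 3.2-fold lower (adjusted p = 2.59e-08). Tie1, an endothelial receptor that modulates angiopoietin signalling, read 7.14, 7.49, 7.44, 7.22 and 7.19 in metastasis-like primaries and 8.85, 8.63 and 8.49 in angiogenic islets, 2.56-fold lower (adjusted p = 1.18e-08). Robo4, a roundabout receptor of endothelium, read 7.29, 7.21, 7.27, 7.25 and 7.17 in metastasis-like primaries and 8.53, 8.27 and 8.30 in angiogenic islets. None of the 3 genes had overlapping groups, and Robo4 had the tightest primaries, with an SD of 0.05.

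Vessel growth factors, their receptors and tip-cell genes were mostly lower. Of 21 measured genes, 16 were called lower and 1 higher (median -0.94), against 18.1% and 15.3% of all genes. Vegfa, the ligand VEGF-A itself, read 8.95, 9.19, 9.32, 8.86 and 9.23 in metastasis-like primaries and 10.58, 10.52 and 10.71 in angiogenic islets. The groups lay over 1 log2 apart, and Vegfa was 2.81-fold lower (adjusted p = 4.39e-09). Islet tumours stood at 10.62 ± 0.24 (SD, n = 5), and metastasis-like primaries differed from them by -1.50 ± 0.10 (adjusted p = 4.78e-10). Placental growth factor (Pgf), a VEGFR1 ligand, averaged 7.08 ± 0.21 in metastasis-like primaries and 8.04 ± 0.21 in angiogenic islets (adjusted p = 0.00432, and 0.0789 with the hepatocyte enzyme mean as a covariate), and Vegfb averaged 9.01 ± 0.12 and 9.16 ± 0.08 in the same order (adjusted p = 0.19). Vegfc, a ligand best known for lymphatic vessels, was the 1 gene called higher. It read 8.72, 7.49, 7.32, 8.96 and 7.34 in metastasis-like primaries and 7.36, 7.08 and 7.03 in angiogenic islets. I-9812 and III-8016 were high while the other 3 primaries lay near the islets and the groups overlapped, so that its difference of 0.81 ± 0.27 (adjusted p = 0.0269) was no longer called without either of these 2 arrays (adjusted p = 0.0713 and adjusted p = 0.0604), nor without either of the arrays Angiogenic2006 and Angiogenic2007 (adjusted p = 0.0798 and adjusted p = 0.089).

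Among the receptors, Kdr, which encodes VEGFR2, read 7.59, 8.16, 8.24, 7.71 and 7.83 in metastasis-like primaries and 9.97, 9.74 and 9.85 in angiogenic islets. No array overlapped, and Kdr was 3.86-fold lower (adjusted p = 1.16e-08). The co-receptor neuropilin 1 (Nrp1) was 2.61-fold lower and its relative Nrp2 1.92-fold lower. The angiopoietin receptor Tek was 2.96-fold lower, and its ligands Angpt1 and Angpt2 differed by -0.69 ± 0.15 and -0.65 ± 0.12 (adjusted p = 0.00128 and adjusted p = 0.000205). With the lymphocyte list mean as a covariate Angpt1 was no longer called (adjusted p = 0.208). Esm1, a proteoglycan secreted by tip cells, was 3.5-fold lower, Dll4, the Notch ligand of tip cells, 1.92-fold lower, and the apelin receptor Aplnr 2.1-fold lower. The receptor Notch1 averaged 9.37 ± 0.39 in metastasis-like primaries and 9.20 ± 0.08 in angiogenic islets and was not called (adjusted p = 0.446), but was called higher without III-8016 (adjusted p = 0.0189).

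**Figure D2:**
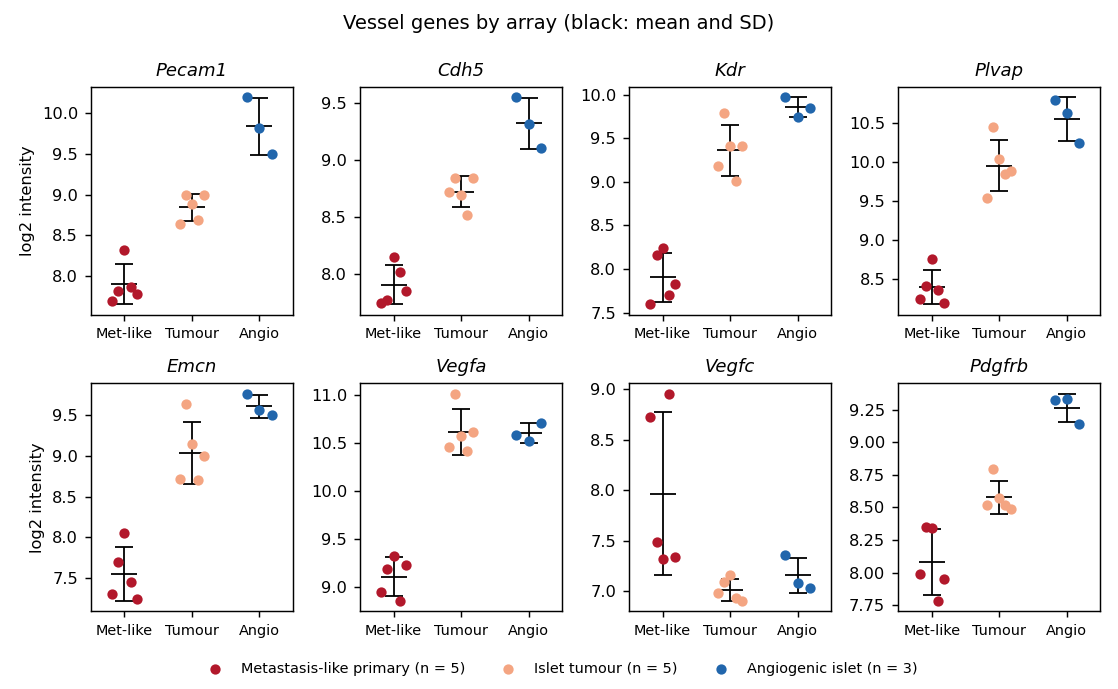
Log2 intensity (vertical axis) of 8 vessel genes on each array of the metastasis-like primaries (n = 5), islet tumours (n = 5) and angiogenic islets (n = 3), with the mean and SD in black. The metastasis-like primaries lie under both other groups for Pecam1, Cdh5, Kdr, Plvap, Emcn, Vegfa and Pdgfrb, and Vegfc is high on 2 of their arrays.

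The coat and bed of the vessels were lower too. Of 14 genes of pericytes and smooth muscle, 11 were called lower and 0 higher (median -0.91), against 18.1% and 15.3% of all genes. Pdgfrb, the PDGF receptor that recruits pericytes, read 7.99, 8.35, 8.34, 7.78 and 7.96 in metastasis-like primaries and 9.32, 9.33 and 9.14 in angiogenic islets, and was 2.27-fold lower without overlap (adjusted p = 3.83e-07). Its endothelial ligand Pdgfb was 1.5-fold lower. Rgs5, a regulator of G protein signalling known as a pericyte marker, averaged 9.97 ± 0.34 in metastasis-like primaries and 10.76 ± 0.02 in angiogenic islets (adjusted p = 0.000239). Contractile genes fell further, with Myh11, smooth muscle myosin, 5.16-fold lower and Acta2, smooth muscle actin, 3.27-fold lower. Kcnj8, Abcc9 and Anpep were not called. Abcc9, a sulfonylurea receptor found in pericytes, ran from 6.84 in II-648 to 8.89 in III-8016 among the metastasis-like primaries, against 7.77 to 8.10 in angiogenic islets.

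Of 14 basement membrane genes, 11 were called lower and 2 higher (median -0.91), against 18.1% and 15.3% of all genes. Col4a1, a chain of type IV collagen, read 8.55, 8.69, 8.82, 8.54 and 8.56 in metastasis-like primaries and 9.83, 9.92 and 9.88 in angiogenic islets, over 1 log2 apart, and was 2.37-fold lower (adjusted p = 5.84e-09). Hspg2, the heparan sulfate proteoglycan perlecan, was 2.31-fold lower, Col15a1 2.38-fold lower and the laminin chain Lama2 2.92-fold lower. The 2 genes called higher were Agrn, the proteoglycan agrin (0.31 ± 0.09, adjusted p = 0.00822), and the laminin chain Lama1 (0.56 ± 0.19, adjusted p = 0.0306). The call of Lama1 was lost without any 1 of 4 arrays, with an adjusted p of 0.1 without the array AngiogenicI-93, 0.0908 without Angiogenic2007, 0.0614 without I-9812 and 0.0718 without III-8023. The call of Agrn was lost with the hepatocyte enzyme mean as a covariate (adjusted p = 0.245), an alternative chosen after seeing the data.

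The interstitial matrix was lower too, while few of its genes differed between the tumour classes. Of 19 genes of fibroblasts and their matrix, 18 were called lower and 0 higher (median -0.85), against 18.1% and 15.3% of all genes. In 16 the groups did not overlap, against 17.9% of all genes that were lower without overlap. Lum, the collagen-binding proteoglycan lumican, read 6.93, 7.02, 7.41, 6.01 and 6.31 in metastasis-like primaries and 8.96, 8.75 and 8.48 in angiogenic islets. The highest primary lay over 1 log2 under the lowest islet sample, and Lum was 3.99-fold lower (adjusted p = 3.65e-06). Dcn, the proteoglycan decorin, was 3.61-fold lower, and the fibrillar collagen chains Col3a1 and Col1a1 were 2.9-fold and 2.14-fold lower. Thbs2 averaged 7.74 ± 0.31 in metastasis-like primaries and 7.80 ± 0.21 in angiogenic islets and was the gene not called. Against islet tumours the list median was 0.08. In that comparison 0 of the 19 genes were lower in metastasis-like primaries and 3 were higher, against 14.2% and 12.3% of all genes. These were periostin (Postn, 0.89 ± 0.26, adjusted p = 0.0139, but 0.0508 when only the arrays of these 2 groups were fitted) and the thrombospondins Thbs4 (1.03 ± 0.25, adjusted p = 0.00296) and Thbs2 (0.43 ± 0.13, adjusted p = 0.0151, but 0.0526 without the islet tumour II-649). The falls of Postn and Thbs4 against angiogenic islets (adjusted p = 0.0419 and adjusted p = 0.0394) were the least firm, and each was lost without any 1 of 6 arrays, with adjusted p up to 0.137 and 0.173 without Angiogenic2006. Fibronectin (Fn1) averaged 9.63 ± 0.19 in metastasis-like primaries and 10.44 ± 0.20 in angiogenic islets (adjusted p = 0.00242), a call lost with the lymphocyte list mean as a covariate (adjusted p = 0.103).

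Of 14 measured proteases tied to the angiogenic switch, 3 were called higher and 5 lower, against 15.3% and 18.1% of all genes. Their median was -0.13 and ran from -0.247 to 0.009 under the alternatives. Mmp2, a gelatinase, read 9.99, 9.39, 9.61, 10.16 and 9.83 in metastasis-like primaries and 9.02, 8.95 and 8.50 in angiogenic islets, and was 1.97-fold higher without overlap (adjusted p = 0.000675), a call lost with the hepatocyte enzyme mean as a covariate (adjusted p = 0.0791). Cathepsin L (Ctsl) was 1.66-fold higher. Heparanase (Hpse), which cuts heparan sulfate chains and frees bound growth factors, averaged 6.65 ± 0.14 in metastasis-like primaries and 8.0 ± 0.19 in angiogenic islets, 2.54-fold lower (adjusted p = 5.96e-05). Mmp9, the protease best known in this model for releasing VEGF from matrix, averaged 6.10 ± 0.08 in metastasis-like primaries and 6.17 ± 0.12 in angiogenic islets and was not called (adjusted p = 0.553). Of 9 endogenous inhibitors of angiogenesis, 4 were lower and 0 higher. Thrombospondin 1 (Thbs1) was 2.41-fold lower (adjusted p = 1.91e-05), with II-648 at 8.37 and the other primaries between 9.17 and 9.30. Adamts1 was 2.34-fold lower and Sparc 2.21-fold lower.

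Most beta-cell genes were called lower, by very different amounts, and the rest were not called. Of 21 measured genes of beta-cell identity and glucose sensing, 15 were called lower and 0 higher (median -1.12), against 18.1% and 15.3% of all genes. All of those 15 except Pcsk1 had no overlap between the groups, against 17.9% of all genes that were lower without overlap. Slc2a2, the glucose transporter GLUT2, read 6.56, 7.42, 7.41, 7.81 and 7.32 in metastasis-like primaries and 11.51, 11.04 and 11.56 in angiogenic islets. The groups lay over 3 log2 apart, and Slc2a2 was 16.8-fold lower (adjusted p = 7.02e-09). G6pc2, the islet glucose-6-phosphatase, was 12.9-fold lower, Ucn3, a peptide of mature beta cells, 12.7-fold lower, and the incretin receptor Glp1r 8.89-fold lower. Pdx1, the beta-cell transcription factor, read 6.73, 7.10, 7.27, 7.38 and 7.05 in metastasis-like primaries and 9.60, 9.63 and 10.04 in angiogenic islets, 6.28-fold lower (adjusted p = 7.32e-11). The factors Nkx6-1 and Mafa were 4.98-fold and 3.19-fold lower, and Mafa was nearly level among the primaries, with 7.17 ± 0.04 in metastasis-like primaries and 8.84 ± 0.18 in angiogenic islets.

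The insulin gene differed less on the log2 scale. Ins2 read 9.87, 10.29, 10.38, 10.28 and 10.01 in metastasis-like primaries and 11.09, 11.22 and 11.23 in angiogenic islets, 2.02-fold lower without overlap (adjusted p = 7.93e-08), while Ins1 was not analysed here. The co-secreted peptide Iapp was 2.41-fold lower. The 6 genes not called were the factors Isl1, Nkx2-2 and Foxa2, the 2 subunits of the ATP-sensitive potassium channel Abcc8 and Kcnj11, and the incretin receptor Gipr. Isl1, a factor shared by all islet endocrine cells, read 11.75, 11.79, 11.56, 11.12 and 11.46 in metastasis-like primaries and 11.24, 11.27 and 11.26 in angiogenic islets, with overlapping groups and a difference of 0.28 ± 0.12 (adjusted p = 0.0824), which was called higher without III-8016 (adjusted p = 0.00601), the lowest of the primaries. Kcnj11 differed by -0.05 ± 0.15 and Gipr by 0.08 ± 0.11. Abcc8 was called lower when only the arrays of the 2 groups were fitted (adjusted p = 0.0201). Against islet tumours, 14 of the 21 genes were lower in metastasis-like primaries, against 14.2% of all genes in that comparison, and 1, Isl1, was higher (12.3% of all genes). In islet tumours against angiogenic islets, where 6.45% of all genes were lower, Slc2a2 was the 1 gene of the list called (-2.06, adjusted p = 0.000489), and Pdx1 differed by 0.11 (adjusted p = 0.697). The proconvertase Pcsk1 was uneven, with 11.71 in III-8016 and 9.08 to 10.22 in the other primaries against 11.10 to 11.21 in angiogenic islets. Its call (-1.26 ± 0.40, adjusted p = 0.0196) was lost without AngiogenicI-93 (adjusted p = 0.052), Angiogenic2006 (adjusted p = 0.0526), Angiogenic2007 (adjusted p = 0.0566) or II-648 (adjusted p rounding to 0.05 but not below it).

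**Figure D3:**
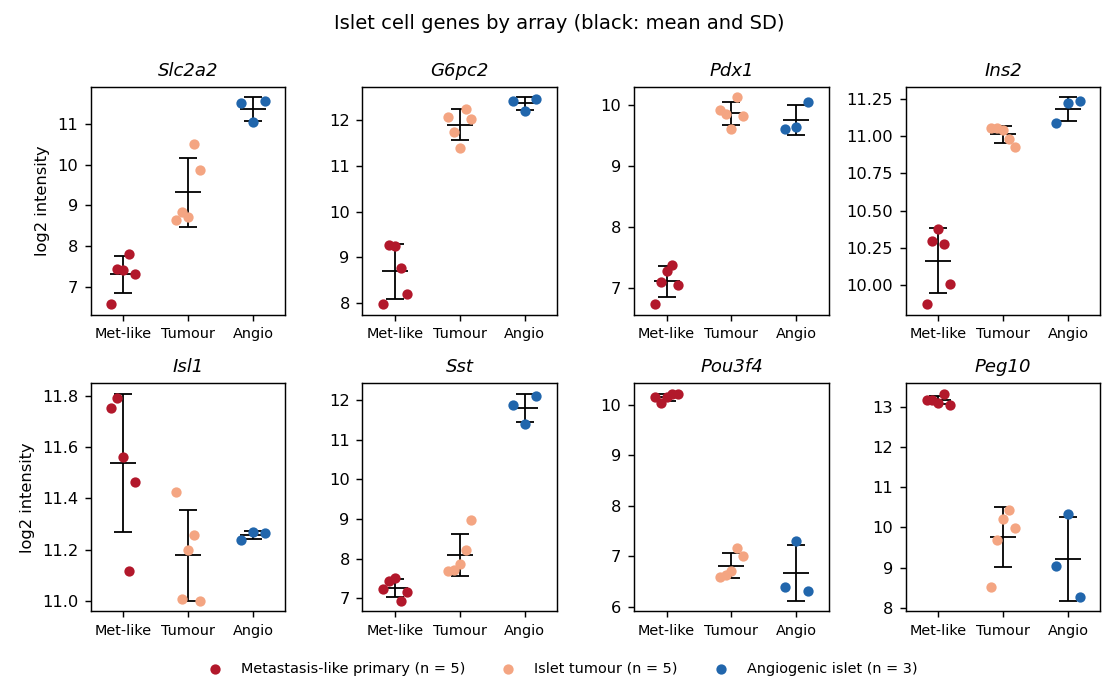
Log2 intensity (vertical axis) of 8 islet genes on each array of the metastasis-like primaries (n = 5), islet tumours (n = 5) and angiogenic islets (n = 3), with the mean and SD in black. Slc2a2, G6pc2, Pdx1, Ins2 and Sst are low in metastasis-like primaries, Isl1 overlaps between the groups, and Pou3f4 and Peg10 are high in all 5 metastasis-like primaries.

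Hormones of the other islet cells were among the largest falls. Pyy, peptide YY, read 7.17, 7.91, 8.0, 7.21 and 7.76 in metastasis-like primaries and 12.31, 12.08 and 12.61 in angiogenic islets, and was 26.4-fold lower (adjusted p = 1.06e-11). Somatostatin (Sst), the hormone of delta cells, was 23.4-fold lower, pancreatic polypeptide (Ppy) 14.4-fold lower and glucagon (Gcg), the hormone of alpha cells, 13.8-fold lower. The delta-cell factor Hhex was 2.15-fold lower. Between islet tumours and the same angiogenic islets, Sst differed by -3.71 (adjusted p = 5.01e-10) and Gcg by -2.93 (adjusted p = 0.000307). Metastasis-like primaries differed from islet tumours by -0.84 ± 0.19 in Sst (adjusted p = 0.0016) and by -0.85 ± 0.39 in Gcg (adjusted p = 0.122, but 0.00624 without the islet tumour II-649).

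Of 12 measured genes listed for non-beta endocrine cells, 6 were called higher and 5 lower (median 0.39), against 15.3% and 18.1% of all genes. Pou3f4, a POU factor of alpha cells, read 10.15, 10.04, 10.17, 10.21 and 10.21 in metastasis-like primaries and 6.40, 7.31 and 6.30 in angiogenic islets. The 5 primaries lay within 0.2 log2 of each other, over 2 log2 above the highest islet sample, and Pou3f4 was 11.2-fold higher (adjusted p = 7.32e-11). The alpha-cell homeobox factors Irx1 and Irx2 were 3.61-fold and 3.44-fold higher, and neither overlapped. Peg10, an imprinted retrotransposon-derived gene, read 13.17, 13.16, 13.11, 13.33 and 13.06 in metastasis-like primaries and 9.04, 10.33 and 8.26 in angiogenic islets, and its 15.5-fold difference was the largest rise of all genes tested (adjusted p = 1.59e-07). The carriers Rbp4 and Ttr, for retinol and thyroxine, were 4.66-fold and 1.73-fold higher. Ghrl, the ghrelin gene, averaged 7.45 ± 0.14 in metastasis-like primaries and 7.46 ± 0.11 in angiogenic islets. Irx1, Irx2, Pou3f4 and Peg10 were also higher in metastasis-like primaries than in islet tumours, by 1.86, 1.85, 3.34 and 3.40.

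Of 17 genes of the secretory granule, 7 were called higher and 5 lower (median 0.18), against 15.3% and 18.1% of all genes. Sytl4, the granule tether granuphilin, was 8.77-fold lower and Scg3, a granin, 3.91-fold lower. Chromogranin A (Chga) averaged 12.09 ± 0.25 in metastasis-like primaries and 12.85 ± 0.08 in angiogenic islets, so that this neuroendocrine marker was among the brighter genes in both groups although it was lower (adjusted p = 2.84e-05). Higher genes included Snap25, a SNARE protein of vesicle fusion (2.15-fold), the granule phosphatase-like protein Ptprn (1.85-fold) and the neuropeptide precursor Vgf (2.09-fold). Vgf was uneven, with 8.37 and 8.90 in I-9812 and III-8016, 7.31 to 8.01 in the other primaries and 6.74 to 7.04 in angiogenic islets, and its call was lost with the lymphocyte list mean as a covariate (adjusted p = 0.102).

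The largest rises also took in genes of the nervous system and several transcription factors. Gabrb1, a subunit of the GABA-A receptor, read 8.79, 8.46, 8.61, 8.63 and 7.88 in metastasis-like primaries and 4.82, 5.01 and 4.49 in angiogenic islets, and was 13-fold higher (adjusted p = 6.42e-12). Tfap2b, a transcription factor of neural crest and kidney, was 11.4-fold higher and Gng3, a neuronal G protein subunit, 11.2-fold higher. Nexmif, a neurite extension gene of the X chromosome, and Asb4, a ubiquitin ligase adaptor, were each 10.7-fold higher. C1ql3, a secreted synaptic protein, was 10.3-fold higher, Fstl5 9.68-fold, the forkhead factor Foxf2 8.67-fold, Fam163a 8.64-fold and galanin (Gal), a neuropeptide, 8.61-fold. The largest falls of genes in no list were Hadh, a mitochondrial enzyme of fatty acid oxidation that restrains insulin release (11.6-fold), Bace2, a beta-cell membrane protease (11.5-fold), and Prss53 and Tmem215 (10.4-fold each). For none of these genes did the groups overlap, which the rule for naming them required.

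Of 17 genes chosen as markers of neurons, 9 were called higher and 1 lower (median 0.61), against 15.3% and 18.1% of all genes. Elavl3, an RNA-binding protein of neurons, read 10.38, 10.30, 10.33, 10.49 and 10.43 in metastasis-like primaries and 7.82, 8.29 and 7.97 in angiogenic islets, and was 5.13-fold higher without overlap (adjusted p = 7.62e-11). Its relative Elavl2 was 3.78-fold higher and the AMPA receptor subunit Gria2 4.3-fold higher. Stmn2, a microtubule regulator of growing axons, was the gene called lower (-0.96 ± 0.23, adjusted p = 0.00247), and Tubb3, Dcx and Syn1, defining markers of neurons, were not called, although Tubb3 was higher when only the arrays of the 2 groups were fitted (adjusted p = 0.0207) and Syn1 without III-8023 (adjusted p = 0.0177). Of 8 genes of peri-islet Schwann cells, 0 were higher and 1 was lower.

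Adhesion genes of epithelia were lower. Of 20 epithelial and mesenchymal genes, 13 were called lower and 2 higher (median -0.69), against 18.1% and 15.3% of all genes. E-cadherin (Cdh1), the main adhesion protein of epithelial cells, read 7.0, 7.81, 8.24, 7.38 and 7.75 in metastasis-like primaries and 10.17, 10.02 and 10.24 in angiogenic islets, 5.67-fold lower without overlap (adjusted p = 5.48e-08). Epcam, an epithelial adhesion molecule, was 3.9-fold lower, and Esrp1, a splicing factor of epithelia, 7.06-fold lower. The 2 genes called higher were Ncam1, the neural cell adhesion molecule (2.01-fold), and the transcription factor Zeb1, a repressor of E-cadherin (1.57-fold). Snai1, Snai2 and Twist1, the other transcription factors of mesenchymal transition in the list, were not called, although Snai2 was higher without II-6413 (adjusted p = 0.0468), and the mesenchymal markers Vim and Cdh2 were lower (-0.65 ± 0.20 and -0.32 ± 0.09). The calls of Vim and Cdh2 were lost without the arrays AngiogenicI-93 (adjusted p = 0.076) and Angiogenic2007 (adjusted p = 0.073). The keratins Krt7 and Krt8, listed with ductal cells, were 4.68-fold and 2.85-fold lower, within 11 ductal genes of which 2 were higher and 5 lower.

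Few cell cycle genes were called. Of 27 genes, 0 were called higher and 2 lower (median 0.08), against 15.3% and 18.1% of all genes. Mki67, a marker of cycling cells, read 10.24, 10.48, 10.67, 11.05 and 11.15 in metastasis-like primaries and 10.35, 10.55 and 10.59 in angiogenic islets, with overlapping groups and a difference of 0.22 ± 0.32 (adjusted p = 0.63). The genes called lower were the G1 cyclins Ccnd2 (3.58-fold) and Ccnd1 (2.2-fold), which couple growth signals to the cell cycle. Rrm2, a subunit of ribonucleotide reductase, lay nearest to a call among the rest (0.59 ± 0.23, adjusted p = 0.0532), and was called without I-9812 (adjusted p = 0.0158). With each array centred on its median 2 genes were called higher, Rrm2 (adjusted p = 0.0331) and Cdc20, an activator of the anaphase-promoting complex (adjusted p just below 0.05). Cdc20 was also called without II-6413 (adjusted p = 0.0396).

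Glucose handling differed in its transporters. Of 21 genes of hypoxia and glycolysis, 7 were called higher and 1 lower (median 0.04), against 15.3% and 18.1% of all genes. Slc2a3, the high-affinity glucose transporter GLUT3, read 9.63, 9.28, 9.44, 9.81 and 9.66 in metastasis-like primaries and 7.18, 7.25 and 6.56 in angiogenic islets, 5.93-fold higher and without overlap (adjusted p = 9.73e-11), while GLUT2 was the one described above as lower. Slc16a1, the lactate and pyruvate carrier MCT1, which mature beta cells normally keep off, was 3.05-fold higher, and the lactate exporter Slc16a3 1.81-fold higher. The phosphofructokinase Pfkp and the pyruvate kinase Pkm were 1.84-fold and 1.43-fold higher. Car9 (0.04 ± 0.12) and Ldha (-0.12 ± 0.25), both targets of hypoxia-inducible factors, were not called. Epas1, which encodes the factor HIF-2 alpha known in endothelium, was the gene called lower. Against islet tumours, 10 of the 21 genes were higher and 2 lower, against 12.3% and 14.2% of all genes. Ldha was among those higher (0.758), but not when only the arrays of these 2 groups were fitted (limma adjusted p = 0.0553). That fit also lost the calls of Aldoa, Bnip3 and Pgk1 (adjusted p = 0.111, 0.0964 and 0.0514). With the mean of its probe sets Hk1 was higher (0.897, adjusted p = 1.15e-09), the opposite sign to the probe set used here.

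Of 16 pancreatic progenitor factors, 2 were higher and 3 lower, near the shares of all genes (15.3% and 18.1%). Hnf4a, a nuclear receptor of liver and islet, was 1.78-fold higher (adjusted p = 1.35e-06), the forkhead factor Foxa1 1.85-fold higher, and Insm1, a zinc finger factor of endocrine cells, 3.3-fold lower. Of 15 imprinted and oncofetal genes, 2 were higher and 3 lower, also near those shares. Insulin-like growth factor 2 (Igf2), a survival factor of RT2 tumours, read 7.94, 8.52, 8.20, 8.75 and 8.08 in metastasis-like primaries and 10.66, 10.75 and 10.94 in angiogenic islets, 5.6-fold lower without overlap (adjusted p = 3.88e-06). Lin28b, an inhibitor of let-7 maturation, was 5.49-fold higher, with 7.71 to 8.83 in metastasis-like primaries and 5.48 to 6.26 in angiogenic islets. Islet tumours lay at 11.03 ± 0.26 for Igf2 and 5.83 ± 0.24 for Lin28b (SD, n = 5), and metastasis-like primaries differed from them by -2.73 ± 0.28 and 2.37 ± 0.20 (adjusted p = 1.69e-07 and adjusted p = 1.48e-08).

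Hepatocyte enzymes were high on 2 of the 3 angiogenic arrays. Of 22 plasma proteins made by liver, 3 were higher and 11 lower (median -0.67), against 15.3% and 18.1% of all genes. Of 16 hepatocyte enzymes 0 were higher and 13 lower (median -0.96). The mean of the hepatocyte enzymes ran from 5.53 to 5.59 in metastasis-like primaries, and in angiogenic islets it was 5.76 in AngiogenicI-93, 6.85 in Angiogenic2006 and 7.23 in Angiogenic2007, so that 2 islet arrays stood above the rest. Cyp2e1, an enzyme of hepatocytes, read 5.11, 5.11, 4.84, 5.13 and 5.18 in metastasis-like primaries and 5.65, 7.76 and 8.76 in angiogenic islets. The tyrosine aminotransferase Tat had another pattern, since all 3 islet arrays were high (8.70, 9.0 and 9.27), as were islet tumours (8.45 ± 0.52), against 6.42 to 6.88 in metastasis-like primaries. The plasma proteins called higher were Rbp4, Ttr and transferrin (Trf), which was 2.47-fold higher with 10.22 to 11.87 in metastasis-like primaries and 9.09 to 9.81 in angiogenic islets.

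Albumin (Alb), the main plasma protein, varied most. It read 9.66, 8.20, 7.61, 11.78 and 9.68 in metastasis-like primaries and 8.02, 11.30 and 11.81 in angiogenic islets, with wide overlap and no call (-0.99 ± 0.82, adjusted p = 0.386). Against islet tumours, which averaged 7.06 ± 0.92, it was higher in the metastasis-like primaries by 2.33 ± 0.71 (adjusted p = 0.0172). That call was lost without III-8016 (1.73, adjusted p = 0.0595). III-8016 combined the highest albumin of the primaries with a hepatocyte enzyme mean of 5.57, while the high albumin of the arrays Angiogenic2006 and Angiogenic2007 went with high enzyme means. The part of liver RNA in these levels was not tested. The albumin promoter is shown for the hepatocyte nuclear factor 1 half-site GTTAAT (reverse complement ATTAAC), which occurred in 6 of 19 plasma protein promoters (31.6%) and in 6.6% of all measured promoters. It also occurred in 3 of 9 promoters of the pancreatic progenitor list (33.3%) and 3 of 12 of the neuron list (25.0%).
Alb (chr5:90460620-90460869, plus strand, GRCm38.p6, match 32 bases before the start): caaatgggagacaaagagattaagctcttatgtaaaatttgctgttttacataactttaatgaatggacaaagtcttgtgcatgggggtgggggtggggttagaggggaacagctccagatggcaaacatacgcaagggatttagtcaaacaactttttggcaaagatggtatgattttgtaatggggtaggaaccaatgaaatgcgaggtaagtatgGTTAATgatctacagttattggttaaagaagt

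Lymphocyte genes were high on 2 of the 3 islet arrays. Of 15 lymphocyte genes, 14 were called lower and 0 higher (median -1.13), against 18.1% and 15.3% of all genes. The groups were free of overlap in only 2 of them, against 17.9% of all genes that were lower without overlap. The list mean was 8.51 in AngiogenicI-93, 8.04 in Angiogenic2006 and 6.36 in Angiogenic2007, against 6.27 to 6.38 in metastasis-like primaries and 6.25 to 6.49 in islet tumours. Ms4a1, the B-cell antigen CD20, read 5.14, 5.33, 5.25, 5.19 and 5.22 in metastasis-like primaries and 9.19, 9.0 and 5.10 in angiogenic islets. The number of genes called lower was 6 without AngiogenicI-93 and 7 without Angiogenic2006. With the lymphocyte list mean as a covariate 16 of the 20 endothelial genes and 11 of the 14 pericyte genes were called lower.

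Of 15 macrophage genes, 5 were lower and 0 higher, against 18.1% and 15.3% of all genes, shares that also apply to the lists below. The largest fall was in Cd74, the invariant chain of class II antigen presentation (3.63-fold), which B cells share. C1qa, a complement chain of macrophages, was 1.62-fold lower, a call lost with the lymphocyte covariate (adjusted p = 0.162). Csf1r, Cd163 and Cd14, a receptor, a scavenger receptor and a lipopolysaccharide co-receptor of macrophages, were the other 3. Without the array Angiogenic2006 the adjusted p was 0.292 for Csf1r and 0.373 for Cd163. Csf1r was also no longer called without AngiogenicI-93 (adjusted p = 0.0883) or without any metastasis-like primary but II-6413 (adjusted p between 0.052 and 0.0867), nor Cd163 without II-648 (adjusted p = 0.0525) or III-8016 (adjusted p = 0.0621). Adgre1, Mrc1 and Cd68, further macrophage markers, were not called. Of 16 genes of antigen presentation and interferon, 1 was higher and 5 lower, led by the class II chains H2-Aa (3.25-fold lower) and H2-Ab1 (3.23-fold lower), both of which were no longer called with the lymphocyte covariate (adjusted p = 0.0954 and adjusted p = 0.105). Of 11 neutrophil genes, 0 were called, and of 7 lymphatic vessel genes 3 were lower and 0 higher, with Lyve1, a hyaluronan receptor, 2.35-fold lower and the VEGF-C receptor Flt4 1.67-fold lower.

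Of 22 acinar genes, 0 were called higher and 1 lower. The acinar mean was 11.71, 11.70, 12.23, 10.04 and 11.91 in metastasis-like primaries and 11.62, 11.71 and 10.36 in angiogenic islets, so that exocrine RNA was abundant on all 8 arrays and lower on III-8016 and Angiogenic2007. The gene called lower was Bhlha15, the acinar factor MIST1, which averaged 7.53 ± 0.31 in metastasis-like primaries and 8.49 ± 0.06 in angiogenic islets. Of 11 adipocyte genes 1 was higher and 3 lower, and of 3 red blood cell genes 0 were called.

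Immediate-early and heat shock genes, which respond within minutes to handling and heat, were lower in metastasis-like primaries. Of 19 genes, 15 were called lower and 0 higher (median -0.84), against 18.1% and 15.3% of all genes. Fos, a subunit of the AP-1 factor, read 7.60, 7.21, 7.21, 8.14 and 7.72 in metastasis-like primaries and 10.28, 10.08 and 10.60 in angiogenic islets, 6.72-fold lower without overlap (adjusted p = 1.12e-09). The heat shock protein gene Hspa1a was 6.38-fold lower. Islet tumours had a median difference of -1.13 from the same angiogenic islets. Of the 19 genes, 5 were higher in metastasis-like primaries than in islet tumours, against 12.3% of all genes. The calls moved with the alternative. That of Ier3 was lost when only the arrays of these 2 groups were fitted (limma adjusted p = 0.0805) and that of Klf6 with array weights (adjusted p = 0.0603). Atf3 was called higher with the title prefix as a replicate block (adjusted p = 0.0139). Islets and tumours were obtained by dissection or isolation, per the series text, and which was used for which tissue is not stated there, so that tissue stage and handling cannot be told apart for these genes.

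Xist, the RNA of the inactive X chromosome, had the largest fall of all genes tested. It read 5.43, 5.46, 5.33, 6.28 and 5.43 in metastasis-like primaries and 10.95, 10.90 and 10.87 in angiogenic islets, 40-fold lower (adjusted p = 7.3e-14). The Y-linked Kdm5d read 8.47 to 8.65 in metastasis-like primaries and 7.22 to 7.56 in angiogenic islets (adjusted p = 0.0138), a call lost without AngiogenicI-93 (adjusted p = 0.0535) or Angiogenic2006 (adjusted p = 0.0506), and Uty and Eif2s3y were not called, although Uty was higher when only the arrays of the 2 groups were fitted (adjusted p = 6.64e-05). Xist was low in islet tumours as well (5.98 ± 0.28). Sex and tissue stage cannot be told apart in this comparison.

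Genes of the unfolded protein response serve the folding of secreted proteins. Of 18 measured, 12 were called lower and 0 higher (median -0.46), against 18.1% and 15.3% of all genes. Wfs1, a membrane protein of the endoplasmic reticulum in beta cells, was 2.24-fold lower, Edem1, which targets misfolded proteins for degradation, 2.17-fold, and the disulfide isomerase Pdia6 2-fold. The sensor Atf6 was 1.47-fold lower, and Xbp1 (0.09) and Ddit3 (0.20) were not called. Of 15 genes of fatty acid and sterol synthesis, 1 was higher and 6 lower, with the desaturase Scd1 3.27-fold lower and the regulator Srebf1 1.77-fold lower.

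Setting both tumour classes against the angiogenic islets shows which lists differed between the classes. Between metastasis-like primaries and islet tumours 5279 genes were called (26.5%), and between islet tumours and angiogenic islets 1903 (9.54%), of which 617 were higher (3.09%) and 1286 lower (6.45%). Both tumour classes share the 3 angiogenic arrays, and their values are given side by side. The endothelial median was -1.30 for metastasis-like primaries and -0.53 for islet tumours, and 17 of the 20 genes were lower in metastasis-like primaries than in islet tumours, the exceptions being Vwf, Esam and Sox17, of which Sox17 was lower without the islet tumour III-8017 (adjusted p = 0.0406). The beta-cell median was -1.12 and -0.17 in the same order, and the VEGF list median -0.94 and -0.30, with 15 of its 21 genes lower in metastasis-like primaries than in islet tumours and 2 higher. The list mean of endothelial genes was 7.50 to 7.78 in metastasis-like primaries, 8.18 to 8.55 in islet tumours and 8.66 to 9.03 in angiogenic islets, with no overlap between the 3 groups. For the lymphocyte and fibroblast lists the order of the 2 classes differed, since medians of metastasis-like primaries and islet tumours were -1.13 and -1.34, and -0.85 and -1.16. The hepatocyte medians were -0.96 and -0.87. Of the 15 lymphocyte genes, 0 differed between the classes.

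**Figure D4:**
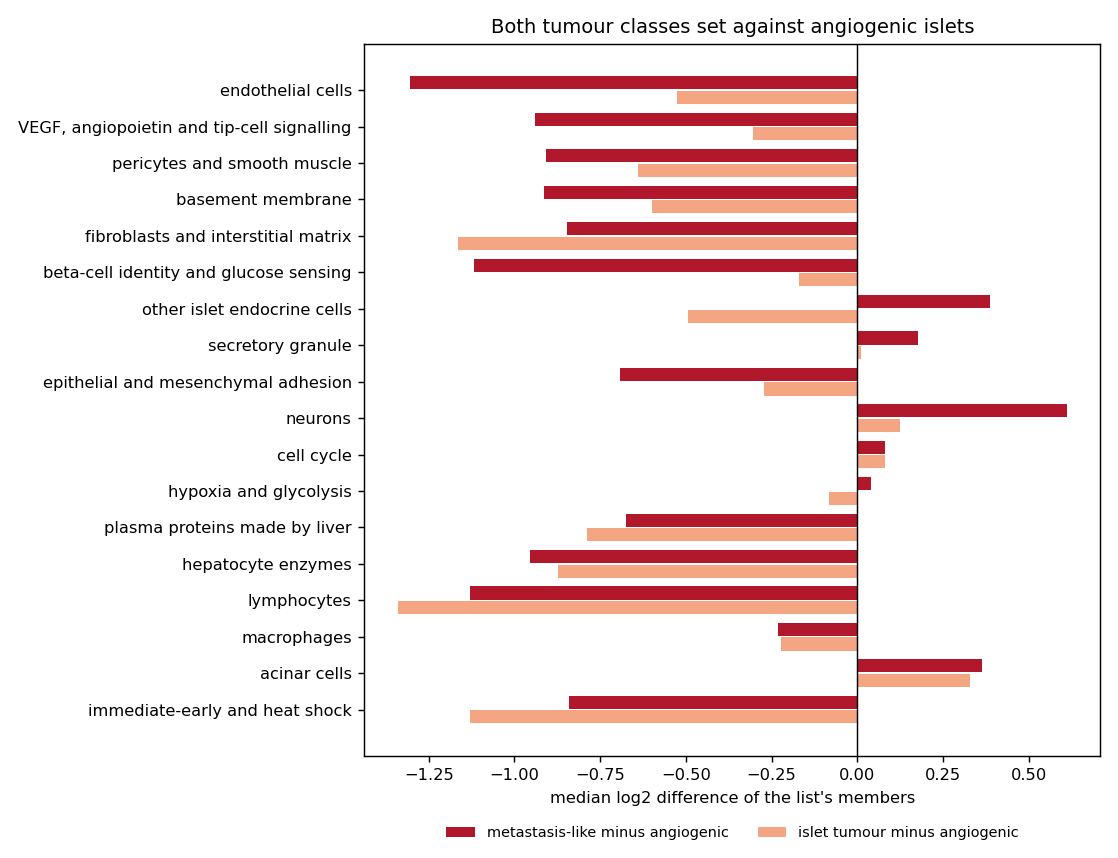
Bars give the median log2 difference of the members of 18 gene lists, for metastasis-like primaries (upper bar of each pair) and islet tumours (lower bar) against the same 3 angiogenic islets. The beta-cell and endothelial bars are longer for metastasis-like primaries (-1.12 and -1.30) than for islet tumours (-0.17 and -0.53), while both bars of the lymphocyte list are long.

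**Figure D5:**
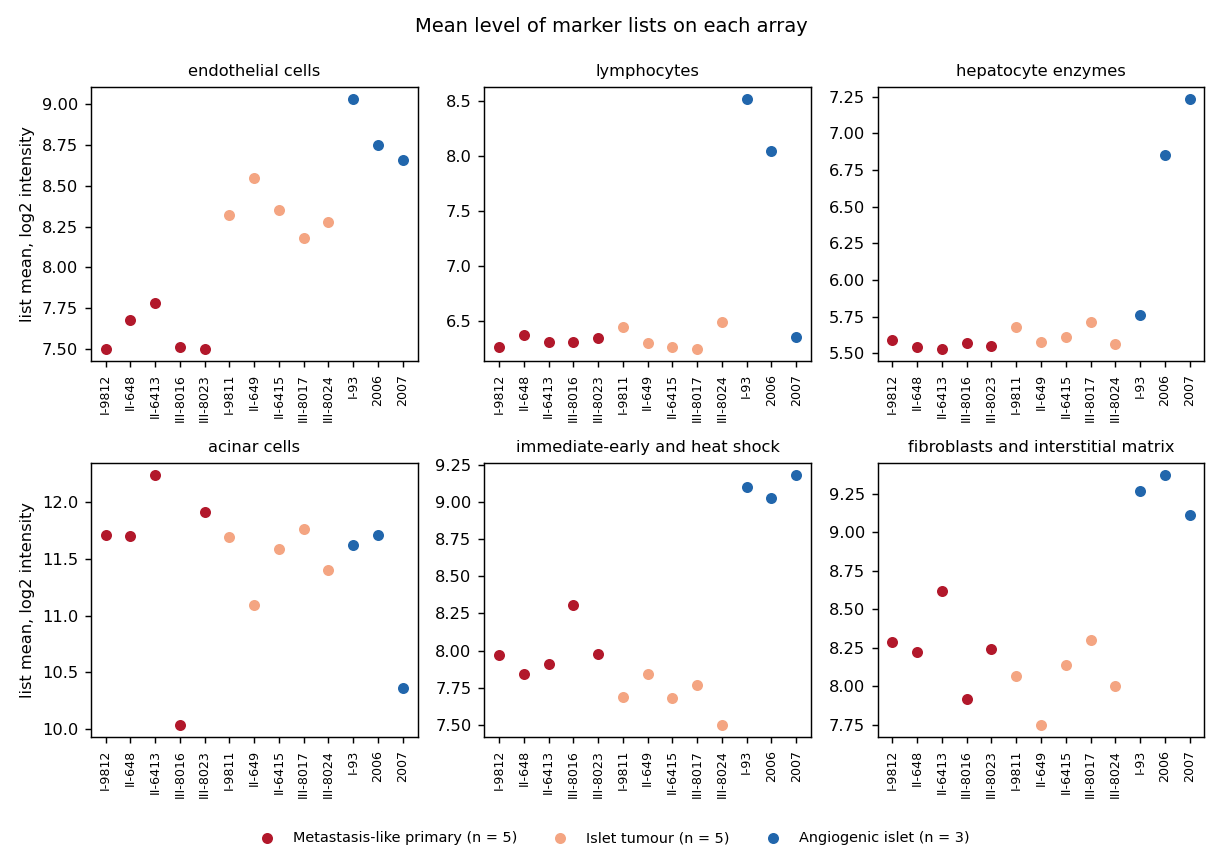
Mean log2 intensity (vertical axis) of the genes of 6 marker lists on each array (horizontal axis, title codes) of the metastasis-like primaries (n = 5), islet tumours (n = 5) and angiogenic islets (n = 3). Lymphocyte genes are high on the islet arrays AngiogenicI-93 and Angiogenic2006, hepatocyte enzymes on Angiogenic2006 and Angiogenic2007, and acinar genes are low on III-8016 and Angiogenic2007.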

How the data were processed

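RNA of mouse islets and tumours was hybridised to Affymetrix Mouse Gene 1.0 ST arrays. The authors deposited 1 log2 value per probe set and array, made with aroma.affymetrix per the series text, and its settings were not given in the sources used here. Array intensities before that step were not used here.

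Of 35511 probe sets, 21789 had 1 gene symbol, 1621 had several, which were left out, and 12101 were not listed in the platform annotation. For each of 19938 genes the probe set with the highest mean was kept. All 22 arrays entered 1 limma fit (version 3.58.1, R 4.3.3) with a mean per group and no covariates, adjusted by Benjamini-Hochberg over all genes, with a call at an adjusted p below 0.05. Tests were two-sided. The fitting was tested on simulated data. Depth does not apply to arrays.

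The groups, the 32 gene lists (490 of 556 entries measured) and the genes named were chosen with earlier results of these data known. Named were the 12 largest called rises and falls without overlap, up to 4 genes of each list with the smallest adjusted p, and 28 fixed genes, 156 in all. Other list members were named for a count or a contrast after their values were seen, as were the motifs and gene families shown. Promoters came from RefSeq (GRCm38.p6). Alternatives were the arrays fitted, a block for the title code, normalization, filters, probe set choice, array weights, variance model, list means as covariates and leaving out each array of the 2 groups and, between the tumour classes, also each islet tumour, which was added after seeing the data.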

Additional observations from a re-analysis of the deposited data

Results flagged for a closer look

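Within the 5 metastasis-like primaries, 188 genes and list means were checked for 1 array far from the other 4, by the gap to its neighbour as a share of the whole range (critical value 0.71). Chance alone gives about 5% of such cases, and 18 were found.

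Array III-8016 stood apart most often. Its acinar list mean was 10.04 against 11.7 to 12.23 on the others (gap share 0.758), and the acinar enzyme Cpa1 (11.763 against 12.958 to 13.118, gap share 0.882) and the lectin Reg1 (10.801 against 12.327 to 12.817, gap share 0.757) were low there. The same array was the highest for the imprinted list mean (8.94 against 8.53 to 8.63, gap share 0.756), Gng3 (10.499 against 9.947 to 10.069, gap share 0.779) and Xist (6.276 against 5.327 to 5.461, gap share 0.859), and the lowest for the collagen chain Col6a2 (7.757 against 8.034 to 8.147, gap share 0.71).

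Array I-9812 was the lowest for Insm1 (7.917 against 8.591 to 8.713, gap share 0.847) and Elavl2 (8.987 against 9.339 to 9.408, gap share 0.836). It was the highest for the erythroid anion exchanger Slc4a1 (7.352 against 6.625 to 6.789, gap share 0.774) and for the red blood cell list mean (6.95 against 6.01 to 6.27, gap share 0.723).

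Array II-6413 was the highest for Pecam1 (8.323 against 7.695 to 7.867, gap share 0.726) and Bhlha15 (8.072 against 7.298 to 7.484, gap share 0.76), and the lowest for Cyp2e1 (4.844 against 5.108 to 5.183, gap share 0.779). Array II-648 was the lowest for Thbs1 (8.374 against 9.173 to 9.298, gap share 0.865).

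Array III-8023 was the lowest for the Y-linked Eif2s3y (7.567 against 9.457 to 9.542, gap share 0.957) and for Wfs1 (7.376 against 7.82 to 7.895, gap share 0.855), and the highest for apolipoprotein B (Apob, 5.986 against 5.681 to 5.765, gap share 0.725).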

How the results depend on the processing

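Leaving out 1 array gave 2193 to 3136 genes higher and 2710 to 3563 lower, both lowest without the array AngiogenicI-93, and between the tumour classes, with islet tumours also left out, 2300 to 2432 higher and 2539 to 2883 lower. With the replicate block for the title prefix 3328 genes were higher and 3279 lower, 4 hepatocyte enzymes were lower, and between the tumour classes 2665 genes were higher and 3073 lower. The title codes were not taken to pair the samples. Against angiogenic islets only the prefix I is shared, and deviations of those 2 arrays correlated at -0.131. Against islet tumours the prefixes I, II and III are shared. Arrays with neighbouring codes correlated at 0.206 (I-9812 and I-9811), 0.084 (II-648 and II-649), -0.035 (II-6413 and II-6415), 0.046 (III-8016 and III-8017) and 0.149 (III-8023 and III-8024). The neighbouring islet tumour was the closest match of I-9812, II-648 and III-8023, but not of II-6413 and III-8016. Pairing by neighbouring codes was not excluded by these values, and no fit with such pairs was run. Median centring gave 3718 higher and 3133 lower, so that 54.3% of calls were higher against 45.7% in the fit reported. The lymphocyte covariate left 1482 higher and 1929 lower, and the hepatocyte covariate, chosen after seeing the data, 1655 higher and 2398 lower. A change of at least 1 log2 was called for 507 genes higher and 690 lower, and between the tumour classes for 431 higher and 314 lower. At that size 13 endothelial, 8 VEGF, 6 pericyte, 9 fibroblast, 7 basement membrane, 8 hepatocyte, 6 adhesion and 9 immediate-early genes were lower, and 5 neuronal genes higher. Without the dimmest genes 6 hepatocyte enzymes and 9 lymphocyte genes were lower. The hepatocyte covariate left 1 hepatocyte enzyme and the lymphocyte covariate 0 lymphocyte genes by limma, which follows from their construction, since each covariate is the mean of the same genes. Fitting only the arrays of the 2 groups left 8 lymphocyte genes. Signs turned for the plasma protein median (0.205) and, by the same construction, the hepatocyte median (0.002) with the hepatocyte covariate, and for Irf1 with the mean of its probe sets (0.178, adjusted p = 0.0971). Between the tumour classes the sign of Hk1 turned with the mean of its probe sets (0.897, limma adjusted p = 1.15e-09). List medians changed sign under at least 1 alternative in 15 of 32 lists, and in 7 when 1 array was left out. The ranges of those 7 without 1 array, which include both signs, were -0.023 to 0.169 for the cell cycle, -0.005 to 0.082 for hypoxia, -0.073 to 0.044 for progenitor factors, -0.084 to 0.104 for neutrophils, -0.142 to 0.692 for acinar cells, -0.227 to 0.402 for red blood cells and -0.013 to 0.108 for adipocytes. Leaving out 1 array left 8 to 14 hepatocyte enzymes and 6 to 15 lymphocyte genes lower, with 8 without Angiogenic2007, 6 without AngiogenicI-93 and 7 without Angiogenic2006. Other causes were not tested.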

Other observations

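Families of receptors, adhesion genes and lectins, a few members of which (Gria2, Reg1 and 4 integrin chains) are also in the lists, were counted after their values had been seen. Each count is read against all genes, of which 15.3% were higher and 18.1% lower. Of 16 GABA-A receptor subunits, 8 were higher in metastasis-like primaries than in angiogenic islets and 1 was lower, and of 16 ionotropic glutamate receptor subunits 7 were higher and 0 lower by limma. Besides Gabrb1, the subunits Gabrg1 (3.06) and Gabra2 (2.58) rose furthest in the first family, and Grik2 (2.63) and Grin2a (2.24) in the second. Of 24 integrin chains, which bind matrix, 1 was higher and 14 lower (median -0.441), with Itgb8 at -1.33 and Itga1 at -1.16. Of 5 somatostatin receptors, 3 were higher and 1 lower, with Sstr1 at 1.06 and Sstr3 at -0.81. Of 20 semaphorins, 7 were higher and 5 lower. Of 7 Reg lectins, which acinar cells secrete after injury, 3 were higher and 0 lower, on arrays whose acinar content differed as described above.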
